A study of Zea mays with 9 samples.

Results

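A group of 84 maize gene models stood out in endosperm at 12 days after pollination (DAP) without reaching the level of the bulk storage transcripts. They were chosen from 110028 models on v, the CPM (read count scaled to a common library size) after TMM scaling, which sets libraries to the level of the bulk of models. A model entered the group when v at 12 DAP lay between 10 and 1000 and v + 1 was at least 4 times that of each of the other 7 stages. They made up 0.0763% of all models, 0.188% of the 44687 models that reached v = 1 in at least 1 library, and 0.678% of the 12391 models with v of 10 to 1000 at 12 DAP. The height at 12 DAP and the gap to the other stages chose the models, so they are descriptions here and not findings.

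The samples came from the inbred B73, grown in a greenhouse under a 16-hour day, untreated and self-pollinated. Endosperm cut free of embryo and pericarp was taken at 8, 10 and 12 DAP, and whole kernels were taken unpollinated (0 DAP) and at 2, 3, 4 and 6 DAP. Poly(A) RNA of 1 biological sample per stage was sequenced on the SOLiD 4 system, the 0 DAP sample in 2 technical replicates that were summed here, which gives 9 libraries for 8 stages. No difference between stages therefore has a biological replicate, and no test or p-value is given. The change from kernel to endosperm falls between 6 and 8 DAP, so tissue and age cannot be told apart across it, and in bulk tissue a different number of cells of a type and a different amount of RNA per cell cannot be told apart either.

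The cereal endosperm is the nutritive tissue of the grain. After it has become cellular and its cell types have formed, its inner cells turn to filling, in which starch is laid down in plastids and prolamins, in maize the zeins, are packed into protein bodies of the endoplasmic reticulum. Zein genes form large tandem families and are under transcription factors such as Opaque2, a bZIP protein, and the prolamin-box binding factor, a Dof protein, so the filling endosperm devotes much of its mRNA to a few gene families.

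How far the counted reads were concentrated in few models sets the scale on which the 84 models were chosen. The libraries held 17716275 to 40145710 counted reads, and 36543449 at 12 DAP. The top 100 models by count took 6.89% to 9.43% of the reads up to 6 DAP, then 19.6%, 55.5% and 85.8% at 8, 10 and 12 DAP. These totals are sums over models, so a read counted in several models would enter them more than once. The zein models z1A1_3 and z1A1_5, for example, had 1634103 and 1630304 reads at 12 DAP. Whether reads were shared between models was not tested, and values by library total carry the same limit. The effective size by TMM was 1.36 to 1.61 times the library total in kernels, and 1.07, 0.528 and 0.156 times it at 8, 10 and 12 DAP. So v = 10 meant 547 reads at 6 DAP, 191 at 8 DAP, 159 at 10 DAP and only 56.8 at 12 DAP. As a check of the stage labels, all 30 detected zein models were highest at 12 DAP on v, and 24 of them by library total. This does not tell endosperm from whole kernels of the same age. The summed v of the zein models was 2220000 at 12 DAP, but also 1440 to 1570 at 0 to 4 DAP, unpollinated kernels included, and 2.67 at 6 DAP. The 13 detected genes of the embryo list summed to 478, 777 and 640 at 8, 10 and 12 DAP, against 144 to 317 in kernels. Most of this at 12 DAP came from RAB15 (306), ole1 (174) and glb3 (122), and RAB15 already had 124 to 254 in kernels. The rest of the list had 16.2 (oleosin4) or less at 12 DAP, with glb1 at 1.76, vp1 at 0.528 and EMB5 at 0. The part of either list in the results was not tested.

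The 84 models together held 39136 reads at 12 DAP, 0.107% of that library. Their share was 0.0449% at 10 DAP, 0.0117% at 8 DAP, 0.00825% at 6 DAP and 0.0106% to 0.0128% in the libraries of 0 to 4 DAP. Most were low even at their peak. Their v at 12 DAP had a minimum of 10.6, a median of 23.1 and a maximum of 845, with 58 models under 50 and 19 over 100. The reads behind these values numbered 60 at the least, 131.5 at the median and 4804 at the most. Because v is not divided by transcript length, it orders stages within a model and does not order models by transcript number.

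Few of the 84 could be matched to a RefSeq record. The match was by identifier alone and took in 18787 of all 110028 models, so a model without a record may still be described elsewhere. Only 5 of them (5.95%) matched a record in the RefSeq gene table used for names, against 6841 (55.2%) of the 12391 models with v of 10 to 1000 at 12 DAP. GRMZM2G138976 and GRMZM5G873335 matched the same record, LOC100279908, and GRMZM2G046520, GRMZM2G007252 and GRMZM2G059299 matched LOC100274142, LOC100383338 and LOC100382042. None of these records carried a gene name, so no role is given to any of the 84. Identifiers built on a sequenced clone rather than on a numbered maize gene model were carried by 11 of the 84 (13.1%), against 3.2% of the models at the same level.

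The 12 lists of genes by symbol held 247 models, of which 229 were detected and 107 had v of 10 to 1000 at 12 DAP, and 0 were among the 84. Models without a RefSeq record could not appear on a list, and the 5 with a record carried no gene name. The 0 was therefore fixed in advance and says nothing about the role of the 84. The zein list had its 30 models highest at 12 DAP, 19 of them above v = 1000 and past the ratio of 4, and a median ratio to the highest other stage of 4.66 on v + 1. Over all 44687 detected models 7346 were highest at 12 DAP and the median ratio was 0.528. The list of starch synthesis genes had 11 of 22 models highest at 12 DAP with a median ratio of 0.923, and that of endoplasmic reticulum folding genes 6 of 24 with 0.869. The late endosperm regulators had 5 of 12 with 0.915. Amino acid and nitrogen metabolism had 6 of 26 highest at 12 DAP (median 0.497), heat shock 5 of 24 (0.416), and protease inhibitors and defence 5 of 24 (0.31). The amino acid list includes GRMZM2G154182, matched there as Asn1, which is the same model as nac4 on the regulator list. The shares of the amino acid, heat shock and defence lists were not below that of all detected models, 7346 of 44687, while their medians were below 0.528. The lists of embryo, of other endosperm cell types and of floral genes had smaller shares, from few models each. The counts were 1 of 13 for embryo and late embryogenesis (median 0.588), 0 of 9 for aleurone (0.436) and 0 of 15 for the basal transfer layer (0.201). For the embryo-surrounding region 0 of 5 were highest at 12 DAP (0.391), and for floral MADS genes 2 of 30 (0.0932).

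The regulators differed in their course. The o2 gene, which encodes Opaque2, had v of 36.7, 203 and 251 at 8, 10 and 12 DAP, and nac4, a NAC-family gene, had 126, 449 and 744. Their ratios of 12 over 10 DAP were 1.24 and 1.66 on v + 1 but turned to 0.365 and 0.488 by library total, so their direction depends on the scaling. The prolamin-box factor pbf1 was matched by 2 models, of which GRMZM2G146283 had v of 10.5, 51.1 and 63.3 and at most 0.165 in kernels, while GRMZM2G146267 had 41.6, 50.6 and 71.6 beside 26.1 to 44 in kernels. Opaque11, a bHLH gene, had 30.9, 38.2 and 38.2, and the aleurone regulators Nkd1 and Nkd2 had 44.2, 63.6 and 50.8, and 29.6, 41.7 and 34.5. The Opaque2 partner ohp1 had 10.5, 2.33 and 13.4, against 7.83 to 41.4 in kernels, and ohp2 had 7.74, 9.62 and 10.2, against 12.5 to 20.1 in kernels. MADS47, vp1 and dof3 stayed at or under v = 2.07 at every stage.

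Among the 84, reads before 12 DAP were sparse. The next highest stage was 10 DAP in 55 models, 8 DAP in 10, 0 DAP in 9, 2 DAP and 6 DAP in 3 each, and 3 DAP and 4 DAP in 2 each. Median v over the 84 was 1.51 at 10 DAP, 0.575 at 8 DAP and 0.0183 at 6 DAP. At 10 DAP 48 models had v of at least 1 and 19 of at least 10, and at 8 DAP 26 and 3 did. No read was counted in 12 of them at 10 DAP, in 28 at 8 DAP and in 34 to 46 at each kernel stage, and 21 had none in any kernel library. A count of 0 allows up to 3 reads, which is v = 0.189 at 10 DAP, 0.157 at 8 DAP and 0.0549 at 6 DAP, and such limits cover counting error only. In the technical replicates of 0 DAP, 43 and 42 of the 84 had a read.

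The account follows 5 patterns that covered all 84, which serve only as an order, since they were drawn up after the values were seen. They are 21 models whose 12 DAP count is a whole multiple of 119 reads, 5 models of 1 clone and of like counts, 14 models with v of at least 5 at 10 DAP and under 1 in every kernel stage, 12 models with v of at least 1 in a kernel stage, and 32 models with less than 5 at 10 DAP and under 1 in kernels.

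**Figure D1:**
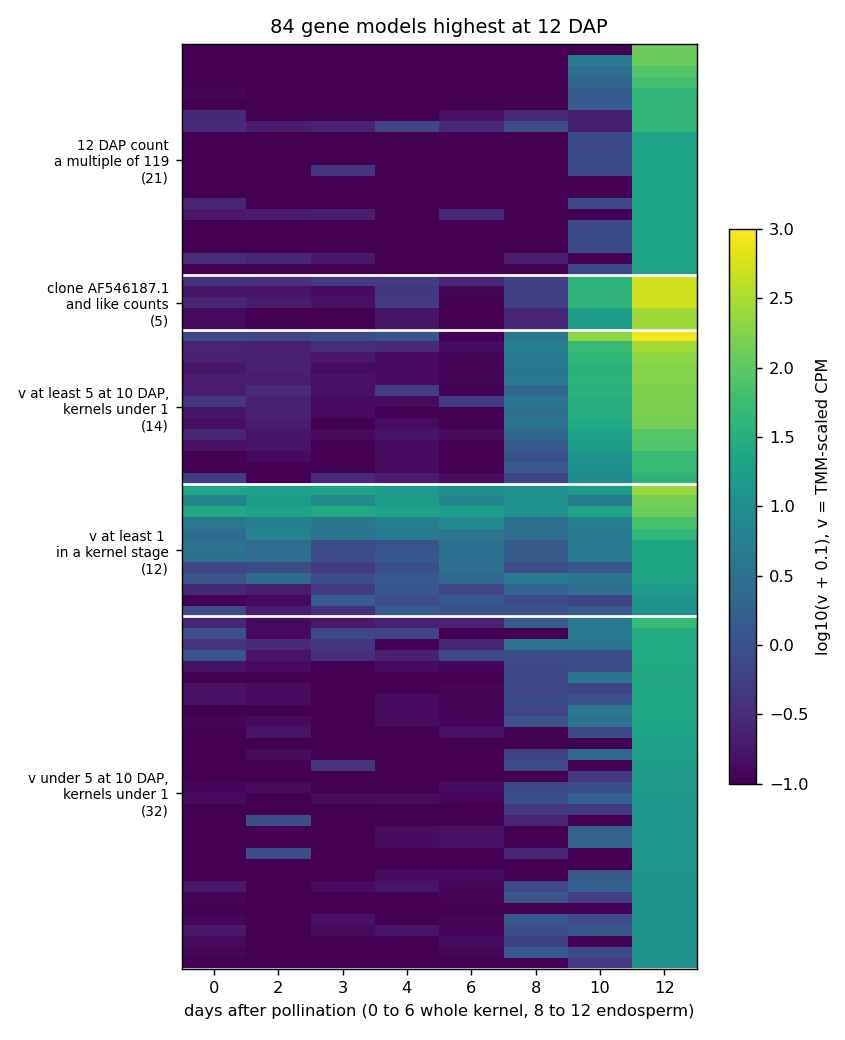
TMM-scaled read count (v, as log10 of v + 0.1, colour) of the 84 models, 1 row each, at the 8 stages in DAP, grouped by pattern and ordered by 12 DAP value within each group, with the number of models in parentheses. Only the 12 models of the fourth block reach v of 1 in at least 1 kernel stage (up to 26.8), by which they were grouped. The first 21 are at or near 0 until 10 DAP, and 6 models have no read outside 12 DAP.

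Whole multiples, which the choice did not use, recur in the raw counts. The 12 DAP count was a whole multiple of 119 in 21 of the 84 models (25%), against 128 (1.03%) of the models with v of 10 to 1000 at 12 DAP. The 128 include the 21, and the gap between these shares follows in part from how 119 was picked. Of the other divisors tried, from 20 upwards and without multiples of 119, none took more than 8 of the 84. Exactly 119 reads were counted in 13 models, 238 in 4, 357 in 1, 476 in 1 and 714 in 2. In 14 of the 21 the 10 DAP count was the same multiple of 11, that is 11, 22, 33, 44 or 66 reads. In the whole table the same 14 models, and no other, had both counts at the same multiple. Such a pair is a 30.3-fold gap in v, so that all 14 are in the group follows largely from the rule.

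The largest of these were GRMZM2G354878 and AC204710.4_FG010, with 714 reads each at 12 DAP (v = 126). GRMZM2G354878 had 66 reads at 10 DAP (v = 4.15) and 0 in every other library, which makes it 30.3-fold higher at 12 DAP than at 10 DAP (95% interval 23.5 to 39.6, counting error only). AC204710.4_FG010 had no read in any other library, at least 666-fold higher than 3 reads at 10 DAP would be. These 2 models share their 12 DAP count and differ at 10 DAP.

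Smaller multiples repeated the pair of counts. AC204710.4_FG005 had 476 reads at 12 DAP and 44 at 10 DAP, GRMZM2G053476 had 357 and 33, and AC200123.4_FG001 and AC200123.4_FG002 had 238 and 22 each. There were 9 models with 119 reads at 12 DAP and 11 at 10 DAP: AC183912.3_FG002, AC204710.4_FG006, GRMZM2G094903, GRMZM2G112476, GRMZM2G326911, GRMZM2G497724, GRMZM2G515441, GRMZM2G540031 and GRMZM5G850634. Their v was 20.9 at 12 DAP and 0.692 at 10 DAP, the same 30.3-fold gap with a wider interval (16.3 to 62.3). Of these 9 only GRMZM2G112476 and GRMZM2G326911 had reads elsewhere, at 3 DAP and at 0 DAP.

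The other members of the 21 differed at 10 DAP. GRMZM2G143903 and GRMZM2G143907 had 238 reads at 12 DAP but 2 at 10 DAP, so v was 41.9 at 12 DAP and 0.126 at 10 DAP in both. Their highest other stage was 8 DAP, at v of 0.209 and 0.784. GRMZM2G143916, GRMZM2G143924, GRMZM2G444073 and GRMZM2G568890 had 119 reads at 12 DAP and none at 10 DAP, at least 111-fold higher than 3 reads there. For GRMZM2G143916 and GRMZM2G143924 no other library had a read either.

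Equal counts occurred in the group as a whole. Counts identical to those of another of the 84 at every stage were found in 15 models, and 17 fell into 6 sets whose counts lay within 2% or 2 reads of each other in every library. The largest of these sets held 7 models. No model outside the 84 belonged to any of them, which follows largely from the rule, since like counts give nearly the same v. The share with like counts among all models at the same level was not counted. With read counts alone, a read counted in several models cannot be told apart from separate transcripts of equal abundance. The number of independent transcripts among the 84 is therefore not known: it is 73 with 1 model per set of like counts, and 63 without the 21 multiples of 119, a choice made after the data were seen.

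**Figure D2:**
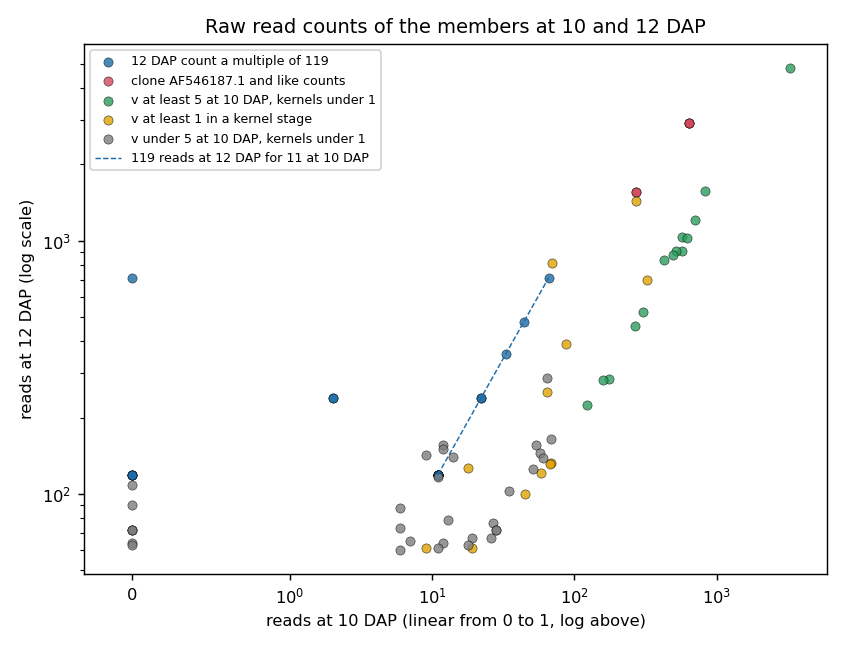
Raw reads of each of the 84 models at 12 DAP (vertical, log scale) against 10 DAP (horizontal, linear from 0 to 1 and log above), coloured by pattern. The dashed line joins 119 reads at 12 DAP with 11 at 10 DAP and their common multiples up to 714 and 66, and 14 models lie on it, while the green models with v of at least 5 at 10 DAP follow a separate and lower slope.

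The second pattern is a run of models on 1 clone, AF546187.1. AF546187.1_FG005 and AF546187.1_FG006 had 2909 and 2908 reads at 12 DAP, and GRMZM5G824236, with a different type of identifier, had 2908. AF546187.1_FG006 had v of 0.0734, 0.0658, 0.0294, 0.337, 0.0183, 0.47, 40 and 512 from 0 to 12 DAP. All 3 were 12.8-fold higher at 12 DAP than at 10 DAP (11.7 to 14 for AF546187.1_FG006).

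AF546187.1_FG008 and GRMZM5G802967 had identical counts in every library. Their v was 0.0294 at 0 DAP, 0 at 2 and 3 DAP, 0.0675 at 4 DAP, 0 at 6 DAP, 0.157 at 8 DAP, 17.2 at 10 DAP and 273 at 12 DAP. Between 12 and 10 DAP this is a 15.9-fold gap (14 to 18.1).

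The same clone carries models far above the group. Of its 13 models, 6 exceeded v = 1000 at 12 DAP and passed the ratio of 4, from 1330 (AF546187.1_FG002) to 37100 (AF546187.1_FG001), 3 are in the group and 4 had v under 10 at 12 DAP. The counts of AF546187.1_FG003 and AF546187.1_FG004 were 10 and 9 times those of AF546187.1_FG006. At 12 DAP AF546187.1_FG006 had 2908 reads beside their 29089 and 26172, and at 10 DAP it had 636 beside their 6363 and 5725. The same factors of 10 and 9 held at 8 DAP (9 reads beside 90 and 81) and at 4 DAP (10 beside 100 and 90). The upper limit of v = 1000 therefore divided a set of models whose counts moved in fixed proportion.

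**Figure D3:**
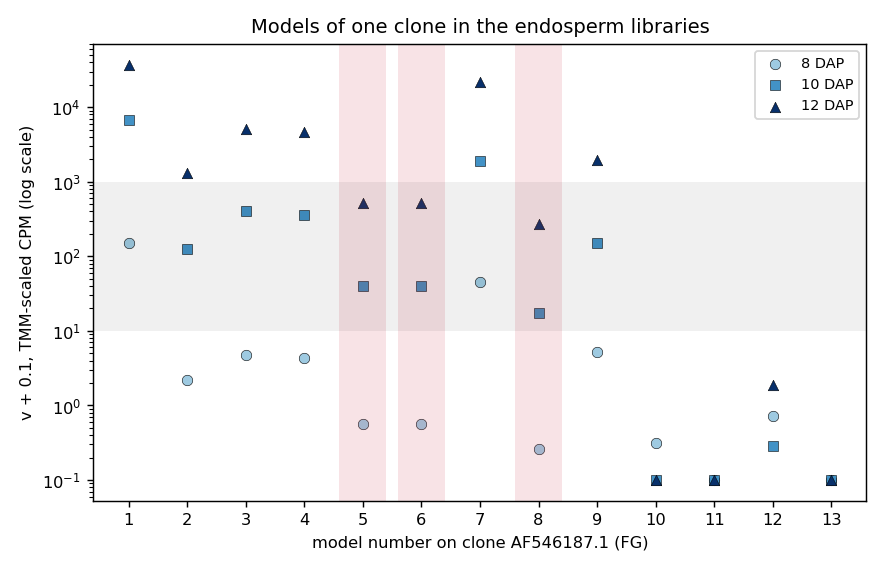
Normalised read count (v + 0.1, log scale) of the 13 models of clone AF546187.1 by model number at 8 DAP (light circles), 10 DAP (squares) and 12 DAP (dark triangles). The grey band marks v of 10 to 1000 and the red columns the 3 models in the group, FG005, FG006 and FG008, at 512, 512 and 273 at 12 DAP, with 6 models of the clone above the band and 4 below it.

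The third pattern is a steady climb through the endosperm stages. Its 14 models had v of 39.4 to 845 at 12 DAP (median 157), 7.73 to 205 at 10 DAP (31.8) and 0.575 to 5.54 at 8 DAP (3.19), and under 1 at every kernel stage. They were 4.11-fold to 5.5-fold higher at 12 DAP than at 10 DAP (median 4.86), a narrow range just past the ratio that chose them.

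GRMZM2G058019 was the highest of the 84. Its v was 0.632, 0.527, 0.736, 0.978, 0, 3.82, 205 and 845 at 0, 2, 3, 4, 6, 8, 10 and 12 DAP, from 4804 reads at 12 DAP and 3267 at 10 DAP. It had few reads in kernels and none at 6 DAP, the deepest library, and its fold gain was larger between 8 and 10 DAP than between 10 and 12 DAP. Its gap from 12 to 10 DAP was 4.11-fold (3.93 to 4.3), so the interval reaches below the ratio of 4.

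GRMZM2G175385 followed with v of 275 at 12 DAP, 52.2 at 10 DAP and 5.54 at 8 DAP, against at most 0.235 in kernels. GRMZM2G403529 had 211 at 12 DAP and 44.1 at 10 DAP, and GRMZM2G147416 and GRMZM2G160074 had 182 and 181 at 12 DAP and 35.7 and 38.8 at 10 DAP. GRMZM2G175381, GRMZM2G307806, GRMZM2G011256 and GRMZM2G055986 had 161, 160, 154 and 147 at 12 DAP and 35.7, 32.6, 30.9 and 26.8 at 10 DAP. All 8 lay in a band of 4.5-fold to 5.5-fold between these stages. The remaining 5, GRMZM2G300558, GRMZM2G141005, GRMZM2G171982, GRMZM2G027122 and GRMZM5G888791, had 92.4, 80.9, 50.1, 49.4 and 39.4 at 12 DAP.

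The 28 zein models above v = 1000 at 12 DAP are set beside these 14 as a description only. The 14 were grouped by v of at least 5 at 10 DAP and under 1 in kernels, and the zeins were not. That grouping caps the kernel values of the 14 and bears on their folds between 8 and 10 DAP. Between 12 and 10 DAP the zeins had folds of 1.94 to 8.69 (median 4.78), which are not set against the 14, whose folds there were used to choose them. Between 8 and 10 DAP the 14 models were 7.65-fold to 53.8-fold higher at 10 DAP (median 9.99), and the zeins 2.76-fold to 428-fold (median 40). In kernels the median v of the 14 was 0.0606%, 0.0663%, 0.0255%, 0.0545% and 0.00433% of the 12 DAP value at 0, 2, 3, 4 and 6 DAP. The same shares of the zeins were 0.0652%, 0.066%, 0.0612%, 0.0688% and 0. In the libraries of 2, 3 and 4 DAP the 14 models had 53, 51 and 60 reads and the zeins 45185, 48865 and 46536, whereas at 6 DAP the 14 models had 31 and the zeins 139. Of the 31 reads of the 14 models at 6 DAP, 22 belong to GRMZM2G307806. The source of the kernel reads of either set was not tested.

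A further 12 models were also expressed in kernels, and 10 of them were highest at 12 DAP by TMM scaling but not by library total. Their v at 12 DAP was 10.7 to 253, and in kernels up to 26.8. GRMZM2G354827 had v of 22.2, 17.7, 21.5, 13.9, 9.57, 11.2, 17.2 and 253 from 0 to 12 DAP, 11.4-fold higher at 12 DAP than at its next stage, 0 DAP (10.6 to 12.3). Over the 7 other stages its v stayed between 9.57 and 22.2. At 10 DAP it had 273 reads, the same count as AF546187.1_FG008 and GRMZM5G802967, and 1440 reads at 12 DAP against their 1551. Its counts were far from theirs before that, with 214 reads against 3 at 8 DAP and 523 against 0 at 6 DAP.

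GRMZM2G003225 had v of 6.68, 15.4, 7.77, 15.9, 6.33, 10.5, 4.4 and 144 over the 8 stages, with its lowest value at 10 DAP, just before its highest. GRMZM2G138976 had 26, 19.4, 26.8, 19.3, 16.6, 10.7, 20.5 and 123, only 4.58-fold above its 3 DAP value (4.15 to 5.06). GRMZM5G873335, which matched the same RefSeq record, had 4.05, 5.27, 3.68, 5.23, 7.96, 2.93, 5.47 and 68.6. Reads could have been divided between these 2 models or counted in both, and their profiles are therefore uncertain.

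The other 8 of the 12 reached at most v = 44.3 at 12 DAP (GRMZM2G053480). GRMZM2G311752 and GRMZM2G489448 had 132 and 131 reads at 12 DAP and 69 and 67 at 10 DAP, and close counts at most other stages. GRMZM5G826185, GRMZM2G025048 and GRMZM5G895359 had v of 22.3, 21.3 and 17.6 at 12 DAP, and AC202148.4_FG003 and GRMZM2G059299 had 10.7 each, from 61 reads.

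The last pattern holds 32 low models with little signal before 12 DAP. Their v there was 10.6 to 50.5 (median 13.7), from 60 to 287 reads, with at most 4.34 at 10 DAP and 3.4 at 8 DAP. GRMZM2G143910 was the highest, with v of 50.5 at 12 DAP, 4.02 at 10 DAP, 1.31 at 8 DAP and at most 0.162 in kernels, a 12.5-fold gap (9.54 to 16.7). GRMZM2G410704 had 156 reads and v of 27.4 at 12 DAP, and its next stage was 0 DAP, where the 2 technical replicates gave 6 and 62 reads. These replicates come from 1 sample, so that stage is poorly fixed for this model.

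AC234187.1_FG005, GRMZM2G703755 and GRMZM2G007252 had 108, 72 and 64 reads at 12 DAP and 0 in every other library. With GRMZM2G143916, GRMZM2G143924 and AC204710.4_FG010 they are the 6 of the 84 found in the 12 DAP library only. GRMZM2G007252 is also 1 of the 2 models of this pattern with a RefSeq record. The other, GRMZM2G046520, had v of 12.8 at 12 DAP, 0.377 at 10 DAP, 0.366 at 8 DAP and 0 in kernels.

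Small sets of near-equal counts recurred among the 32. GRMZM2G385391, GRMZM2G351131 and GRMZM2G346058 had 150, 142 and 140 reads at 12 DAP, 12, 9 and 14 at 10 DAP, and 12, 11 and 13 at 8 DAP. GRMZM2G547239 and GRMZM2G108391 were identical at every stage with 72 reads at 12 DAP and none at 10 DAP, and so were GRMZM2G360421 and GRMZM2G398235, also with 72 reads at 12 DAP but 28 at 10 DAP. GRMZM2G069728, GRMZM2G346551 and GRMZM2G014040 had 65, 64 and 61 reads at 12 DAP, 7, 12 and 11 at 10 DAP, and 20, 23 and 23 at 8 DAP. GRMZM2G148695 had 117 reads at 12 DAP and 11 at 10 DAP, close to the repeated pair of 119 and 11 but outside it.

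By library total, which takes each model as a share of all counted reads, 74 of the 84 were still highest at 12 DAP. In 69 of them the 95% interval of the ratio to every other stage lay above 1. Among all models with v of 10 to 1000 at 12 DAP, 92 (0.742%) were highest there by library total. A model had to have a large TMM ratio to be in the group, and the 2 scalings differ only by factors per library, so the 74 follow in part from the choice. The CPM of library total at 12 DAP was 1.64 to 131 with a median of 3.59, and its ratio to the highest other stage ran from 0.465 to 23.3 with a median of 2.12 over the 78 models with a read elsewhere.

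Since the TMM factor was lowest at 12 DAP (0.156), a model that keeps a ratio of 4 on CPM + 1 also keeps it on v + 1. A ratio of 4 on CPM + 1 was kept by 12 of the 84. By construction they are all 12 of the models that pass it at v of 10 to 1000 (0.0968%). Of these, 10 are multiples of 119, namely AC204710.4_FG010, GRMZM2G354878, AC204710.4_FG005, GRMZM2G053476, AC200123.4_FG001, AC200123.4_FG002, GRMZM2G143903, GRMZM2G143907, GRMZM2G143916 and GRMZM2G143924. The others are AF546187.1_FG008 and GRMZM5G802967. GRMZM2G354878 had 19.5 CPM at 12 DAP against 2.19 at 10 DAP, an 8.91-fold gap (6.92 to 11.6), and AF546187.1_FG008 had 42.4 CPM against 9.07, a 4.68-fold gap (4.11 to 5.34).

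With the level of 10 to 1000 also asked of CPM, 5 of the 84 passed: AC204710.4_FG010, GRMZM2G354878, AC204710.4_FG005, AF546187.1_FG008 and GRMZM5G802967. Among all models with CPM of 10 to 1000 at 12 DAP, 6 of 2508 did (0.239%). All 5 belong to the multiples of 119 or to the clone pattern.

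The 5 patterns differed in how they stood by library total. This follows in part from how they were drawn up, since they used the same values and the 2 scalings differ only by factors per library. All 21 multiples of 119 were highest at 12 DAP with intervals above 1, at 7.44-fold to 23.3-fold for those with reads elsewhere (median 8.91), and so were the 5 models of the clone pattern, at 3.76-fold to 4.68-fold. The 14 climbing models were all higher as well, but by 1.21-fold to 1.62-fold (median 1.43). GRMZM2G058019 had 131 CPM at 12 DAP against 109 at 10 DAP, 1.21-fold (1.16 to 1.27), and GRMZM2G055986 had 22.9 against 14.2, 1.62-fold (1.44 to 1.82). Their share of the library was thus higher at 12 DAP by much less than v shows.

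Of the 32 low models all were highest at 12 DAP by library total, by 1.18-fold to 12.1-fold (median 2.35), and 28 of them with intervals above 1. The exceptions were GRMZM2G087987, GRMZM2G069728, GRMZM2G346551 and GRMZM2G014040, all with 8 DAP as the nearest stage. The 12 kernel-expressed models, set apart by their kernel values, had ratios of 0.465 to 1.44 (median 0.836). Among them 2 were highest at 12 DAP, GRMZM2G354827 at 39.4 CPM against 35.2 (1.12-fold, 1.04 to 1.2) and GRMZM5G895359 at 2.74 against 1.9 (1.44-fold, 0.968 to 2.2). GRMZM2G138976 had 19.1 CPM at 12 DAP against 41.1 at 0 DAP, a ratio of 0.465 (0.425 to 0.507). GRMZM2G003225 had 22.3 against 23.8 at 4 DAP, and GRMZM5G873335 10.7 against 10.8 at 6 DAP, with intervals on both sides of 1.

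**Figure D4:**
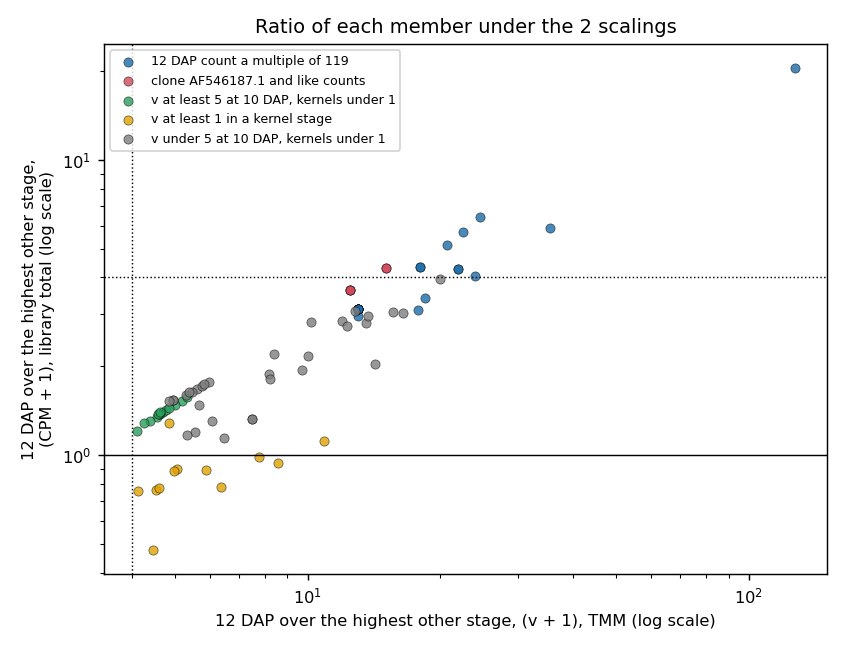
Ratio of 12 DAP to the highest other stage for each of the 84 models by TMM (v + 1, horizontal, log scale) and by library total (CPM + 1, vertical, log scale), coloured by pattern. Dotted lines mark a ratio of 4 on each axis and the solid line equality by library total, with 12 models above the upper dotted line and 10 kernel-expressed models below the solid line.

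The thresholds cut through continuous values. Just inside the ratio of 4 were GRMZM2G058019 at 4.1, GRMZM2G025048 at 4.13, GRMZM2G171982 at 4.26, GRMZM2G175381 at 4.4 and GRMZM2G138976 at 4.46. Just outside were GRMZM2G394307 at 3.98, GRMZM2G094532 at 3.92, GRMZM5G884538 and GRMZM5G820250 at 3.87, and GRMZM2G009483 at 3.79. GRMZM2G094532 is FL1, the floury1 gene of a protein-body membrane protein that affects zein placement, with v of 135 at 12 DAP and 33.7 at 10 DAP. GRMZM2G394307 had nearly the same values, 134 and 33, so reads may be shared between them. At the lower level, GRMZM2G367195 (10.6), GRMZM2G014040, AC202148.4_FG003 and GRMZM2G059299 (10.7 each) and GRMZM2G059185 (11.1) were just inside, and GRMZM2G416093 (9.85), AC199492.3_FG004 and GRMZM2G137868 (9.5 each) and GRMZM2G082821 and GRMZM2G171581 (9.32 each) just outside. Above v = 1000, 117 models passed the same ratio, 19 of them on the zein list, and 28 did at v of 5 to 10.

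The step from 10 to 12 DAP carried the choice. A ratio of 4 on v + 1 for 12 over 10 DAP was passed by 298 detected models (0.667%), and by 691 (1.55%) for 12 over 8 DAP. At v of 10 to 1000 these were 181 (1.46%) and 546 (4.41%), and the 84 are among both by construction.

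The same rule at the other stages gave 13, 16, 4, 9, 73, 17 and 27 models at 0, 2, 3, 4, 6, 8 and 10 DAP, beside 84 at 12 DAP. Its median read count at the peak was 132, against 414 to 1640 at the other stages, which follows in part from the scale, since v = 10 is fewest reads at 12 DAP. Its share with a RefSeq record, 5.95%, was like those of the small groups of 2, 3 and 4 DAP (6.25%, 0 and 11.1% of 16, 4 and 9 models), against 61.5% at 0 DAP, 39.7% at 6 DAP, 35.3% at 8 DAP and 25.9% at 10 DAP. Counts identical to another model of the group occurred in 15 of 84, against 8 of 73 at 6 DAP, 3 of 27 at 10 DAP, 3 of 9 at 4 DAP and 0 at the other stages. By library total the rule gave 36, 22, 11, 12, 99, 51, 19 and 6 models from 0 to 12 DAP, so the 12 DAP group was the largest under TMM and the smallest by library total.

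**Figure D5:**
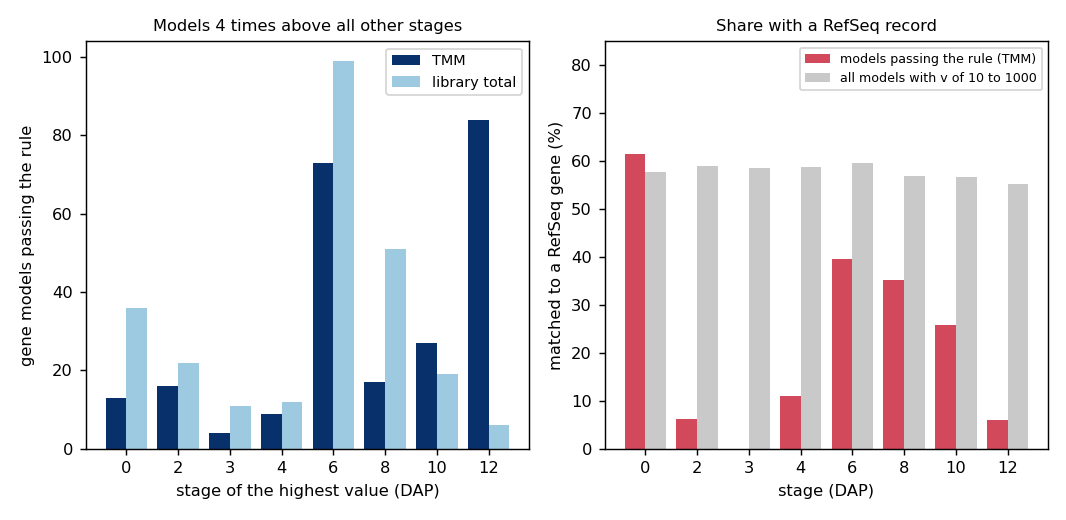
Left, number of models with a value of 10 to 1000 at a stage (DAP) and at least 4 times that of all other stages, under TMM (dark) and by library total (light). Right, percentage of the TMM models (red) and of all models with v of 10 to 1000 at that stage (grey) that match a RefSeq record, where 12 DAP has 84 models under TMM and 6 by library total, and 5.95% matched against 55.2%.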

How the data were processed

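The authors deposited raw whole-number counts of reads per gene model, 1 library each, from SOLiD 4 sequencing of B73 kernels and endosperm. The submitters' processing notes name bedtools, without its role. The sources used here do not give the aligner, genome build, annotation, strand setting or rule for multiply mapped reads. TMM factors from edgeR 4.0.16 in R 4.3.3 set the effective library sizes. From these v was computed as CPM, after the counts and effective sizes of the 0 DAP technical replicates had been summed. Tables and plots were made with pandas 2.3.3, scipy 1.17.1, numpy 2.4.6, matplotlib 3.10.9 and Python 3.11.15.

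The rule needed v of 10 to 1000 at 12 DAP and v + 1 at least 4 times that of each other stage. Folds are ratios of v without a pseudocount, with the exact conditional binomial 95% interval, which covers counting error only since reads are not independent molecules. For models without a read at 10 DAP, a lower bound was taken against 3 reads there. Like counts lay within 2% or 2 reads in every library, with at least 50 reads at 12 DAP. Names came from a RefSeq gene table built on Zm-B73-REFERENCE-NAM-5.0. It matched 18787 models and was used without coordinates. The rule was run on simulated counts in which known folds at 12 DAP were added to a profile shared by all libraries. These counts lack the concentration of reads seen at 10 and 12 DAP, so they do not test the choice of scaling.

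The 84 models and the 12 gene lists were chosen with earlier results of these data known. Named were the 15 models with the highest v and the 10 with the largest ratio, those that pass by library total, the 5 models on either side of each threshold, and the detected late endosperm regulators. Other members were named after their values were seen. Alternatives were DESeq2 1.42.0 size factors, other totals, ratios, levels and pseudocounts, thinned counts, single technical replicates, stages not required, and 1 model per set of like counts. Promoter motifs were planned and not analysed here.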

Additional observations from a re-analysis of the deposited data

How the results depend on the processing

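All 84 models passed also with DESeq2 size factors (94 models), a pseudocount of 0.1 (95), no minimum level (122) and a counting interval that excludes 1, and 61 of them with totals without the 100 most counted models (64). The count moved to 6 by library total (5 shared), 25 with totals without the zein list (9 shared), 296 at a ratio of 2, 43 at a ratio of 8, 201 with no maximum level and 311 with 10 DAP not required, against 84 to 86 with any other stage not required. Which scaling follows transcript number per cell was not tested. For 12 over 10 DAP the 298 models became 12 by library total, 54 without the zein list, 886 at a ratio of 2, 163 at 8 and 463 with no minimum level. For 12 over 8 DAP the 691 became 161, 180, 1947, 372 and 1088 under the same settings, and 455 at a minimum of 20. The 17 models of 8 DAP became 51 by library total, 41 without the zein list and 29 with a pseudocount of 0.1. The 12 that pass a ratio of 4 by library total became 69 when an interval above 1 was asked, 5 with the level limits and 33 with a pseudocount of 0.1. Without either 0 DAP replicate the counts were 84, 298, 691, 72, 17 to 18 (8 DAP), 27 to 28 (10 DAP) and 12.

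Of 38 named models 12 kept a ratio of 4 under each of 8 alternatives, the library total among them. These are the 12 that pass a ratio of 4 by library total, and all models that pass by library total were named. The 12 therefore follow from the naming, and their share of the 38 does not measure how far the group depends on the processing. By library total the ratio on CPM + 1 turned below 1 in GRMZM2G025048 (0.758), GRMZM2G138976 (0.477), AC202148.4_FG003 (0.899), GRMZM2G059299 (0.882) and GRMZM5G873335 (0.986), and without the zein list in GRMZM2G138976 (0.716). The direction of these 5 thus depends on the scaling. Depth limits the low models most, since 60 reads support the lowest at 12 DAP. No paired analysis was possible because only 0 DAP has replicates, and these are technical. The planned motif search was not run.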

Other observations

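A further 212 models had ratios between 2 and 4 at v of 10 to 1000 at 12 DAP, of which 65 (30.7%) matched a RefSeq record and 13 had a usable name. All were listed after their values were seen. The protein-body genes FL1 and O10 (opaque10) had v of 135 and 118 at 12 DAP, against 33.7 and 53.9 at 10 DAP. The lysine-degrading enzyme gene lkrsdh1 had 585 at 12 DAP against 189 at 10 DAP, with 17.9 to 44.5 at the earlier stages. The starch-debranching pullulanase gene zpu1 had 64.6 against 24.2.

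The globulin gene glb3 had v of 122 at 12 DAP against 43.3 at 10 DAP, and rip1, which encodes the ribosome-inactivating protein b-32, had 211 against 98.7. The cystatin gene cc6, a cysteine protease inhibitor, had 24.5 against 8.87. The phytosulfokine precursor gene psk1 had 331 against 99.3, with 86.1 at 6 DAP. The phosphoenolpyruvate carboxykinase gene pck2 had 53 against 24.8, GATA27 had 32 against 15, the metallothionein-like gene mtl2 12.8 against 3.65, and the chaperone gene hsp101 12.5 against 3.4. The potassium channel gene K1 had 13.9 at 12 DAP against 5.96 at 8 DAP.

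By library total only FL1 of these 13 was above its other stages, at 21 CPM at 12 DAP against 17.8. The gene lkrsdh1 had 91 against 99.9, glb3 19 against 22.9 and rip1 32.8 against 52.2.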
